A study of Mus musculus with 12 samples.

Results

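The kinesin family was taken as the microtubule motor genes named Kif with a number and at most 1 letter and 1 further digit, or Kifc with 1 digit. Kifap3, the subunit that links kinesin-2 motors to their cargo, was added. Symbols of other forms were left out, among them Kifc5b, which had up to 155.9 counts in a library but too few to be tested. Kif4.ps, Kif22.ps and Kifc5c.ps, also left out, had no counts. By this rule 41 of 56941 genes in the expression table were members, 9 of them mitotic motors (Kif11, Kif15, Kif23, Kif20a, Kif20b, Kif4, Kif22, Kif2c and Kif18b) and 32 others. Kif14 and Kifc1, the other 2 mitotic motors named by the rule, were not analysed here. RNA came from B cells of the mouse peritoneal cavity (PerC), sorted as B2 (IgD+IgM+) or as class-switched memory B cells (MemB, IgD-IgM-). KI mice carried Cd21-Cre and the R26 LSL-Gpr34Q340X-IRES-GFP allele, in which Cre removes a stop cassette at Rosa26 so that a truncated, gain-of-function form of the lysophosphatidylserine receptor GPR34 is made together with a GFP reporter. Cd21-Cre acts in mature B cells and also in follicular dendritic cells, and not every B cell of these mice recombines the allele. For control mice the labels give only that word, and their exact alleles are not given in the sources used here. The methods of the study state 1 age range for all its mice but no age for each library. There were 3 biological replicate libraries of B2 and of MemB from each genotype, which gives 4 groups and 12 libraries in all.

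Kinesins use ATP to walk along microtubules. Members active in mitosis push spindle poles apart, move chromosomes, shorten microtubule ends and build the midzone where a dividing cell is cleaved, and their transcripts are made mainly in late G2 and M phase, so they are common markers of dividing B cells. The remaining members carry vesicles, mitochondria and endosomes or shape microtubules, and most of these are needed in resting as well as dividing cells.

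The libraries held 29895031 to 39732039 counts. Values are given as CPM, counts scaled to a common library size by TMM normalization, in the order replicate 1, 2 and 3. Gpr34, whose reads include the inserted copy, was at 3.42 to 6.87 CPM in control B2, 100.3 to 112.6 CPM in KI B2, 18.8 to 30.9 CPM in control MemB and 132.4 to 168.4 CPM in KI MemB, which fits the genotype labels. Of the genes behind the sort gate, Ighd was at 1297 to 1694 CPM in B2 and 66.4 to 251.3 CPM in MemB. Ighm was at 4072 to 4341 CPM in control B2 and 2906 to 3593 CPM in KI B2, but still at 2014 to 2688 CPM in control MemB, against 297.4 to 566.4 CPM in KI MemB. Both were called lower by edgeR in KI than in control MemB, Ighm with a log2 fold change of -2.46 (SE 0.17, adjusted p = 4.81e-11) and Ighd with -1.35 (SE 0.18, adjusted p = 9.39e-05). The MemB groups thus differed in both gate genes, and their part in the kinesin values was not tested. The B cell genes Ms4a1, Cd79a, Cd79b and Pax5 were present in every MemB library. Replicates of a group were far apart, and the common biological variation that edgeR estimated over the genes tested came to 91.43%.

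Of the 41 members, 26 had enough counts to be tested, namely all 9 mitotic members with a row and 17 of 32 others. Scaled to the exonic length of each gene, the highest mean levels over the 12 libraries were those of Kif21b at 14.8 CPM per kb and Kif5b at 11.2 CPM per kb, and these 2 genes also led within each group. The order below them differed between groups. The highest mitotic member was Kif20b at 2.82 CPM per kb in control B2 and Kif11 at 3.33 CPM per kb in KI B2. In MemB it was Kif23, at 5.75 CPM per kb in control and 7.46 CPM per kb in KI mice. Kif23, Kif20b (6.63 CPM per kb) and Kif11 (6.03 CPM per kb) had higher means in KI MemB than Kif2a (4.75 CPM per kb) and Kif3b (3.39 CPM per kb), which exceeded all mitotic members in the other groups. No test was made of these orders. The median within-group SD on the log2 scale was 1.71 over the 9 mitotic members, 0.97 over the 17 others and 1.12 over all 15148 genes tested. Between the lowest and the highest library, mitotic members spanned from 7.40-fold (Kif20b) to 210.4-fold (Kif18b). The others spanned from 2.11-fold (Kif5b) to 153.6-fold (Kif13a), apart from Kifc3, which was at 0 in some libraries. Whether the spread differs between the lists was not tested.

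Summed over the 9 mitotic members, control B2 libraries held 53.3, 38.3 and 159.7 CPM and KI B2 libraries 99.3, 76.1 and 113.5 CPM. Control MemB libraries held 110.9, 172.4 and 221.5 CPM and KI MemB libraries 307.2, 279.5 and 160.1 CPM. Replicates 1 and 2 of KI MemB were above every other library, while replicate 3 lay within the range of control MemB, so the groups overlapped. The means were 83.8 ± 66.2 CPM in control B2, 96.3 ± 18.9 CPM in KI B2, 168.3 ± 55.4 CPM in control MemB and 248.9 ± 78.2 CPM in KI MemB (SD, n = 3 each). The 17 other members summed to 529.9 ± 79.4, 533.8 ± 29.9, 570.1 ± 83.6 and 610.0 ± 37.5 CPM in the same order (SD, n = 3 each), and Kif5b and Kif21b together made up 50.9% to 72.8% of that sum. Of the 9 mitotic members, Kif11, Kif15, Kif20b and Kif23 had the highest means in every group, so the mitotic sum mainly reflects these genes. In bulk RNA a difference in the number of dividing cells and a difference in RNA per cell cannot be told apart.

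**Figure D1:**
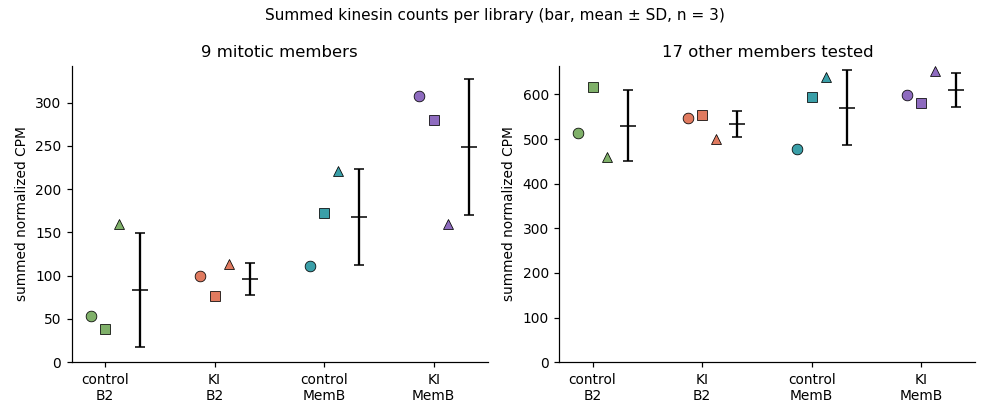
Summed normalized CPM of the 9 mitotic members (left) and the 17 other members tested (right) in each library (circle, replicate 1; square, replicate 2; triangle, replicate 3), with the group mean ± SD (n = 3). Mitotic sums ranged from 38.3 CPM in control B2 to 307.2 CPM in KI MemB with overlap between groups, and the sums of the others ranged from 460.1 to 652.0 CPM.

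The promoters of the mitotic members share a sequence feature that the choice of members did not use. The cell cycle genes homology region (CHR), a short element bound by the MuvB complexes that restrict genes to G2 and M phase, was searched as TTTGAA or TTCGAA on both strands, and the CCAAT box, the site of the factor NF-Y, as CCAAT on both strands. RefSeq promoters (GRCm38.p6, 250 bases before to 50 after the annotated start) matched 31 of 41 members. A CHR was present in 8 of 8 mitotic members with a promoter in the table (Kif20a had none there), in 1 of 12 other tested members and in 21.7% of 27025 genes with a promoter. Counting only matches within 30 bases of the start, the CHR was in 7 of 8 mitotic members, in 1 of 12 other tested members and in 3.95% of all genes. The limit of 30 bases was not part of the planned search, so these shares are a description only. A CCAAT box lay in 5 of 8 mitotic members, 5 of 12 other tested members and 41.1% of all genes, and both elements lay in 5 of 8, 1 of 12 and 8.61%. Matches of these motifs did not overlap in any member promoter. An E2F-like element, searched as TTGGCGC or TTCCCGC on both strands, was found in 1 of 8 mitotic members, 2 of 12 other tested members and 7.79% of genes. A match describes the sequence and does not show that a factor binds there.

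The promoter stretch from 110 bases before to 30 bases after the start is shown for 6 mitotic members to place these elements next to the levels below, with each CHR (TTTGAA, or TTCAAA on the other strand) and each CCAAT box (CCAAT, or ATTGG on the other strand) in capitals. The stretches are chr19:37376272-37376411 on the plus strand for Kif11, chr9:122950971-122951110 on the plus strand for Kif15, chr9:61946770-61946909 on the minus strand for Kif23, chr19:34922248-34922387 on the plus strand for Kif20b, chr7:127042391-127042530 on the minus strand for Kif22 and chr11:102925095-102925234 on the minus strand for Kif18b (GRCm38.p6).
Kif11: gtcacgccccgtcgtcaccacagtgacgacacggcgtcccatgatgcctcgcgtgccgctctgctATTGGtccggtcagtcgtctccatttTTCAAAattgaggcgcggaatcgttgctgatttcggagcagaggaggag
Kif15: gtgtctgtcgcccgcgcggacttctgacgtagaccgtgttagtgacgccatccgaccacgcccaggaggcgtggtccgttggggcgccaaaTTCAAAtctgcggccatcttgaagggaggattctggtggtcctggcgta
Kif23: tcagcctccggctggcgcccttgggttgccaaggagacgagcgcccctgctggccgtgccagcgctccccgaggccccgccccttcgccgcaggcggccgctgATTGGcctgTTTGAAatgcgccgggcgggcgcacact
Kif20b: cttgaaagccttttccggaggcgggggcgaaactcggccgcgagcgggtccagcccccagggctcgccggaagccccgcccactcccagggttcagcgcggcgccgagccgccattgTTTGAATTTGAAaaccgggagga
Kif22: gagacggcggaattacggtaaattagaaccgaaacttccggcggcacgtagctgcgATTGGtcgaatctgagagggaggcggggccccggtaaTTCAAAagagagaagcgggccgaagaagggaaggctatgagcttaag
Kif18b: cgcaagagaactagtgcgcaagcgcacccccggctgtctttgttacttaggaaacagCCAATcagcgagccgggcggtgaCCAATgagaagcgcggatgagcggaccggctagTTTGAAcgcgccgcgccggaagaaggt

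In Kif20b the CHR occurs in 2 copies that abut each other, and in Kif23 a CCAAT box lies just ahead of the CHR. Outside the mitotic list, Kif24 was the only tested member with a CHR, of the TTCGAA form, and Kif3b is shown as a transport motor with a CCAAT box alone (chr4:41464819-41464958 and chr2:153291306-153291445, minus and plus strand, GRCm38.p6).
Kif24: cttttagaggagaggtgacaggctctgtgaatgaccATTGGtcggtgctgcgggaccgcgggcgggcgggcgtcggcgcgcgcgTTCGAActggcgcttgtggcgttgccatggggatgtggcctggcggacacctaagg
Kif3b: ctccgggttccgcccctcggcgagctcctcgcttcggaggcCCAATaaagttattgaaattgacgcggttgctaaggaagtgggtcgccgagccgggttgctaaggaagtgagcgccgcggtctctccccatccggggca

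**Figure D2:**
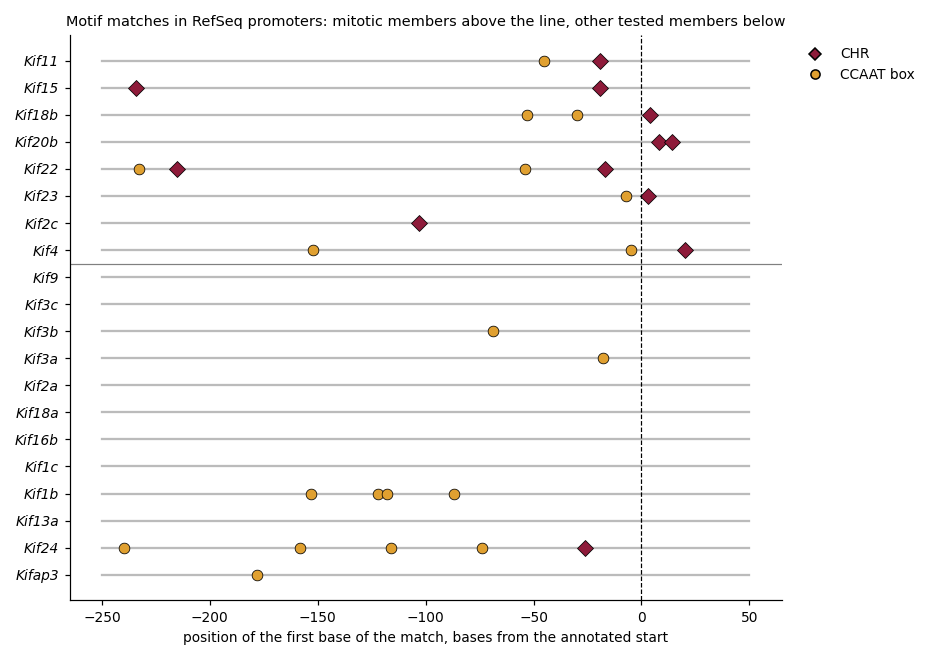
Position of the first base of each CHR (diamond) and CCAAT box (circle) relative to the annotated start, in bases, for the 8 mitotic members above the line and the 12 other tested members below it. The CHR matches of the mitotic members lie mostly within 30 bases of the start, with that of Kif2c at -103, and Kif24 is the only gene below the line that has one.

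Kif11 (Eg5; chromosome 19, 37364799 to 37410307, plus strand, GRCm39) slides spindle microtubules apart to separate the poles. In B2 its level was 10.6, 0.87 and 27.1 CPM in control mice and 30.1, 23.6 and 35.7 CPM in KI mice. In MemB the libraries held 12.1, 18.6 and 47.8 CPM in control and 86.5, 51.4 and 24.1 CPM in KI mice. All groups overlapped, and replicates 1 and 2 of KI MemB exceeded every other library. The log2 fold change of KI against control was 1.04 (SE 0.73, edgeR adjusted p = 0.641) in MemB and 1.22 (SE 0.74, edgeR adjusted p = 0.905) in B2. With 1 library left out, the MemB value ran from 0.54 (without KI MemB replicate 1) to 1.82 (without control MemB replicate 3). Kif15 (chromosome 9, 122780111 to 122847806), which helps Kif11 to hold the spindle bipolar, was at 9.41, 16.0 and 40.6 CPM in control B2, 5.31, 5.63 and 27.8 CPM in KI B2. Control MemB held 4.23, 8.33 and 75.8 CPM and KI MemB 51.1, 51.5 and 4.62 CPM. In KI B2 and both MemB groups 1 library differed several-fold from its replicates, and the log2 fold change in MemB was 0.28 (SE 0.97, edgeR adjusted p = 0.96).

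Kif23 (MKLP1; chromosome 9, 61823187 to 61854074, minus strand) pairs with Racgap1 to form centralspindlin, which bundles microtubules at the midzone for cytokinesis. Control B2 held 6.15, 9.46 and 21.5 CPM, KI B2 41.7, 17.1 and 16.1 CPM. Control MemB held 40.1, 62.4 and 34.1 CPM and KI MemB 82.7, 53.1 and 41.7 CPM. In control mice every MemB library was above every B2 library, with a log2 fold change of 1.88 (SE 0.57, edgeR adjusted p = 0.245). In KI mice the lowest MemB library (41.66 CPM) fell just short of the highest B2 library (41.71 CPM), with a log2 fold change of 1.25 (SE 0.56, edgeR adjusted p = 0.435). DESeq2, tried as an alternative to edgeR, called Kif23 higher in control MemB than control B2 (log2 fold change 1.87, SE 0.54, DESeq2 adjusted p = 0.0241). Within MemB, KI against control gave a log2 fold change of 0.38 (SE 0.55, edgeR adjusted p = 0.881).

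Kif20b (MPP1; chromosome 19, 34899752 to 34953149), which acts late in cytokinesis, was at 22.0, 8.32 and 42.4 CPM in control B2, 8.57, 24.0 and 20.04 CPM in KI B2. MemB libraries of control mice held 36.9, 61.6 and 39.1 CPM and those of KI mice 60.5, 60.2 and 50.2 CPM. The KI MemB libraries were all above the KI B2 libraries, at a log2 fold change of 1.70 (SE 0.57, edgeR adjusted p = 0.256). Kif20a (MKLP2) carries the chromosomal passenger complex of Aurkb to the midzone. It was at 3.33, 0.40 and 6.50 CPM in control B2, 1.28, 0.56 and 0.28 CPM in KI B2. In MemB it was at 0.54, 13.5 and 0.75 CPM in control and 4.67, 25.6 and 10.6 CPM in KI mice. Here too the KI MemB and KI B2 libraries did not overlap, with a log2 fold change of 4.26 (SE 1.51, edgeR adjusted p = 0.315) that passed in DESeq2 (4.28, SE 1.196, DESeq2 adjusted p = 0.0206). Every Kif20a value was fractional, as can occur where the counting program divides reads between genes, so its level is uncertain. The source of the fractions was not tested.

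Among the chromokinesins, which bind chromosome arms, Kif22 (Kid; chromosome 7, 126626898 to 126641643, minus strand) was at 0.54, 0.30 and 1.87 CPM in control B2, 4.54, 1.47 and 3.06 CPM in KI B2. Its MemB values were 16.1, 4.25 and 7.25 CPM in control and 11.2, 20.7 and 18.2 CPM in KI mice. It was the only mitotic member whose MemB libraries lay above the B2 libraries in both genotypes. The log2 fold change was 3.34 (SE 1.16, edgeR adjusted p = 0.322) in control mice and 2.47 (SE 1.11, edgeR adjusted p = 0.436) in KI mice, and DESeq2 called the first of these (3.34, SE 0.84, DESeq2 adjusted p = 0.00675). Kif4, which joins Prc1 at the midzone to limit microtubule growth, was at 0.98, 2.82 and 16.98 CPM in control B2, 7.38, 0.17 and 2.22 CPM in KI B2. The MemB libraries had 0.82, 0.38 and 15.8 CPM in control and 9.55, 5.18 and 3.68 CPM in KI mice. Replicate 3 was by far the highest library in both control groups and not in the KI groups, and the log2 fold change in MemB was 0.11 (SE 1.41, edgeR adjusted p = 0.992). Fractional counts made up 83.3% of the Kif4 values and 41.7% of the Kif22 values.

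Kif18b (chromosome 11, 102796348 to 102815956, minus strand) and its partner Kif2c (MCAK) shorten microtubule plus ends. Kif18b was at 8, 2 and 86 counts in control B2, 10, 2 and 118 counts in KI B2, 3, 3 and 2 counts in control MemB, and 29, 336 and 186 counts in KI MemB. Thus control MemB was at the floor of detection (3 counts per library), all KI MemB libraries were above it, and replicate 3 held nearly all Kif18b counts of each B2 group. The summed counts of 551 and 8 in KI and control MemB gave a ratio of 76.3 after scaling to library size, with an exact 95% interval of 38.5 to 177.6 that covers counting error only and not the spread between mice. Because counts at the floor cannot be told from absence, the upper limit of this interval and the size of the fitted fold change are not read. The fitted log2 fold change was 6.15 (SE 2.15), with the smallest p among the kinesins of this comparison, and it did not pass after adjustment over all genes (edgeR adjusted p = 0.32). DESeq2 called it (log2 fold change 6.23, SE 1.64, DESeq2 adjusted p = 0.00972), among 3.17% of genes that DESeq2 called in this comparison. Kif2c was at 2, 2 and 5 counts in control B2, 2, 145 and 207 counts in KI B2, 2, 114 and 26 counts in control MemB, and 3, 54 and 28 counts in KI MemB. Replicate 1 was near the floor in every group, and the log2 fold change in B2 was 4.89 (SE 2.15, edgeR adjusted p = 0.838).

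**Figure D3:**
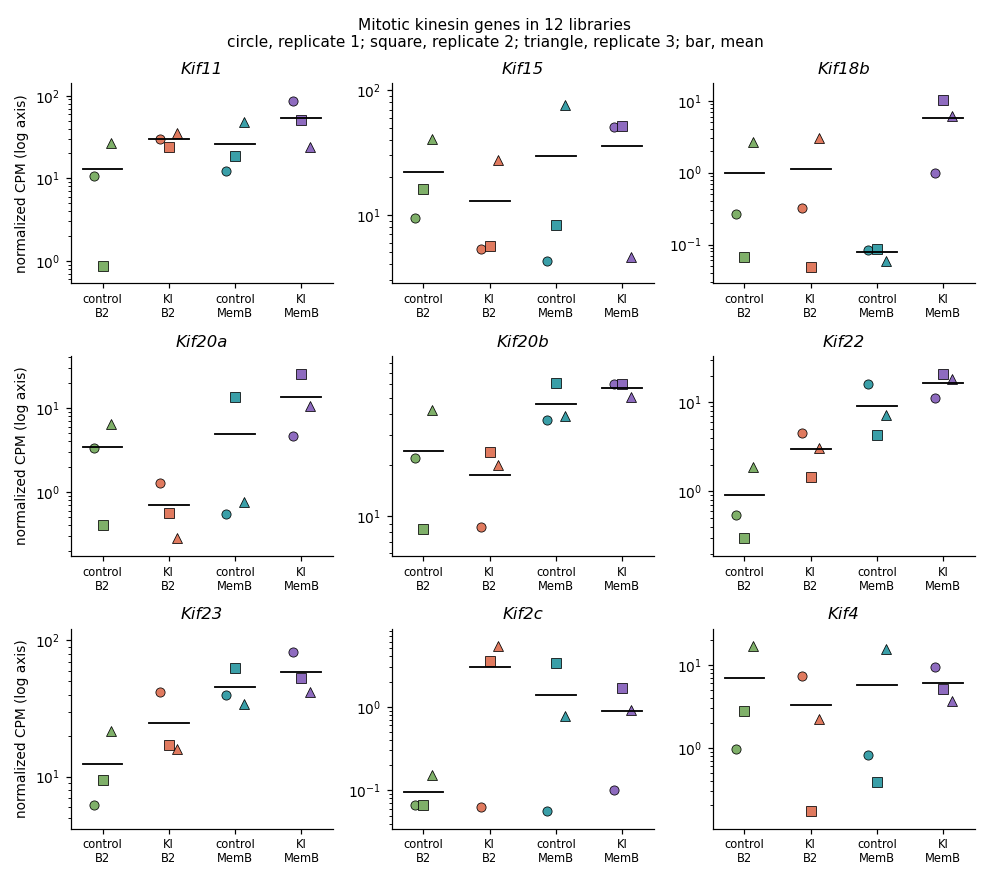
Normalized CPM (log axis) of the 9 mitotic members in each of the 12 libraries by group, with a bar at the group mean. Kif22 shows MemB libraries above B2 libraries in both genotypes, and Kif18b shows the 3 control MemB libraries at 0.06 to 0.09 CPM against 0.99 to 10.3 CPM in KI MemB.

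For the question whether the GPR34 allele goes with higher expression of mitotic motors, 0 of 26 kinesins were called by edgeR in MemB (adjusted p below 0.05 and log2 fold change beyond 1), where 0.284% of all genes tested were called. At an unadjusted edgeR p below 0.05, 2 members were higher in KI (Kif18b and Kifap3), against 4.83% of all genes, and 2 were lower (Kifc2 and Kifc3), against 6.24%. Kifc3 was at 0 in all KI MemB libraries and had 42, 0 and 0 counts in control MemB. Its p thus rests on 1 library and is not read as a difference. DESeq2 called Kif18b alone, among 3.17% of all genes. The mean was higher in KI MemB for 8 of 9 mitotic members, Kif2c being the exception, and for 7 of 17 others, against 48.4% of all genes. The median log2 fold change was 0.38 over the mitotic members, -0.20 over the others and -0.03 over all genes tested. With 1 library left out, the mitotic median ran from 0.28 (without KI MemB replicate 1) to 0.96 (without control MemB replicate 3), and that of the others from -0.39 (without KI MemB replicate 1) to 0 (without control MemB replicate 1). With the replicate number as a block the 2 medians were 1.35 and -0.15, and without the 4 libraries numbered 3 they were 1.12 and -0.62. KI MemB libraries lay entirely above control MemB for 3 of 26 members (Kif18b, Kif13b and Kifap3), against 6.01% of all genes, and entirely below for 3 (Kif3b, Kif9 and Kifc2), against 6.08%.

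Genes used as markers of other cells differed between the MemB groups as well. The 7 plasma cell genes summed to 752.5 to 1601 CPM in control and 2782 to 5316 CPM in KI MemB. Igha, which class-switched memory B cells can also express, was the largest part of this sum, at 687.1 ± 366.2 CPM in control and 3794 ± 1270 CPM in KI MemB (SD, n = 3 each). Jchain and Igha were called higher by edgeR, while Irf4 and Mzb1 were lower in every KI library, and Xbp1 and Prdm1 overlapped. Sdc1 had 421, 2 and 2 counts in KI MemB and 1, 0 and 3 counts in control MemB, so nearly all its counts came from 1 library. Of the other lists, only genes that passed the count filter enter the sums. For the germinal centre list, 6 of 7 genes summed to 17.8 to 58.0 CPM in control and 59.8 to 91.8 CPM in KI MemB, and without Bcl6 and Fas to 6.39 to 9.29 CPM and 9.92 to 49.2 CPM, with Mef2b at 0 counts in 4 of the 6 libraries. For T and NK cells, 7 of 9 genes summed to 69.5 to 119.3 CPM and 1.81 to 44.4 CPM. Cd3d, with 167 to 489 counts in control and 2 to 5 counts in KI libraries, Cd3g, Cd8a and Nkg7 were lower in every KI library. Cd3e, Trac and Cd4 overlapped, and Cd4 at 42.25 CPM made up most of the sum in replicate 3 of KI MemB. For mast cells, 3 of 4 genes summed to 1.44 to 233.9 CPM and 0.65 to 1.64 CPM. From these lists edgeR called Nkg7 (log2 fold change -6.47, SE 1.46, adjusted p = 0.0374) and Cma1 (-6.40, SE 1.41, adjusted p = 0.0374) lower in KI MemB, although replicate 2 of control MemB had Cma1 at 0.79 CPM, within the KI range. For macrophages, 3 of 7 genes summed to 29.6 to 37.7 CPM and 13.5 to 66.6 CPM. Most of it was Icam2, at 19.6 to 37.2 CPM in control and 12.5 to 65.4 CPM in KI MemB. Adgre1 and Lyz2 overlapped, with Lyz2 at 3, 297 and 44 counts in control and 1, 6 and 2.02 counts in KI MemB. Of the genes not tested, Csf1r had 19.5, 471.0 and 0 counts in control and 0, 5.46 and 3.02 counts in KI MemB. Timd4 had 32, 0 and 27 against 1, 0 and 0 counts, and Cd14 and Gata6 were at 0 in every MemB library. The 6 B-1 cell genes summed to 765.3 to 775.3 CPM and 603.2 to 650.5 CPM. Cd5, Spn, Ahr and Bhlhe41 were lower in every KI library, while Zbtb32 and Plac8 overlapped. The part of such cells in the kinesin values was not tested. Mki67 and Top2a, general markers of dividing cells, were higher in each KI MemB library than in any control MemB library, with log2 fold changes of 0.91 (SE 0.35, edgeR adjusted p = 0.36) and 1.33 (SE 0.41, edgeR adjusted p = 0.236).

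In B2, edgeR called 0 of 26 kinesins, where 0.0066% of all genes tested were called, and DESeq2 also called none, against 0.284%. At an unadjusted p below 0.05 edgeR gave Kif2c as higher in KI, against 2.86% of all genes, and Kif18a as lower, against 2.88%. The mean was higher in KI B2 for 5 of 9 mitotic and 9 of 17 other members, against 48.4% of all genes, and the medians of the log2 fold changes were 0.19, 0.04 and -0.03 for the mitotic members, the others and all genes. With 1 library left out, the mitotic median ran from -0.57 (without KI B2 replicate 3) to 1.68 (without control B2 replicate 3) and that of the others from -0.34 (without control B2 replicate 1) to 0.10 (without control B2 replicate 3), so the direction of neither held. KI B2 libraries lay entirely above control B2 for Kif3b and Kif3c, against 5.21% of all genes, and entirely below for Kif18a and Kif24, against 4.99%.

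Between the sorted populations, edgeR called 0 of 26 kinesins in control mice and 0 of 26 in KI mice, where 0.264% and 0.363% of all genes were called. In control mice Kif22 and Kif23 were higher in MemB at an unadjusted edgeR p below 0.05, against 5.81% of all genes, and Kif24 was lower, against 4.8%. DESeq2 called Kif22 and Kif23, among 2.63% of all genes. In KI mice the same limit gave 5 members with more in MemB (Kif20a, Kif20b, Kif22, Kif23 and Kif1c), against 5.29% of all genes, and Kifc2 with less, against 5.27%. DESeq2 called Kif20a, among 2.59% of all genes. MemB libraries of control mice lay entirely above B2 for Kif22, Kif23, Kif3b and Kif3c, against 6.32% of all genes, and entirely below for Kif24 and Kifap3, against 5.95%. In KI mice they lay above for Kif20a, Kif20b, Kif22, Kif13a, Kif13b and Kif1b, against 7.3%, and below for Kif3b and Kifc2, against 7.53%. The MemB mean was above the B2 mean for 7 of 9 mitotic members in control mice and 8 of 9 in KI mice, against 51.8% and 51.5% of all genes. Median log2 fold changes of the mitotic members were 0.92 in control and 1.47 in KI mice, those of the other members -0.14 and 0.02, and those of all genes 0.04 and 0.03. B-1 genes summed to 268.5 to 348.8 CPM in control B2 and 765.3 to 775.3 CPM in control MemB. In KI mice they summed to 193.4 to 306.6 and 603.2 to 650.5 CPM. Spn, Zbtb32 and Bhlhe41 were higher in every MemB than in every B2 library of each genotype, while Cd5, Ahr and Plac8 overlapped. The 7 plasma cell genes summed to 362.6 to 515.2 CPM in control B2 and 752.5 to 1601 CPM in control MemB. Their KI sums were 296.3 to 459.1 and 2782 to 5316 CPM. Igha made up most of these differences, with B2 and MemB means of 53.5 and 687.1 CPM in control and 57.0 and 3794 CPM in KI mice. MemB lay entirely above B2 for Igha alone in control mice and for Igha and Jchain in KI mice. The other genes of this list overlapped. T and NK sums were higher in control MemB (69.5 to 119.3 against 20.4 to 44.2 CPM) and overlapped in KI mice. In control mice only Cd3d and Cd4 separated, and Trac had a lower mean in MemB. In KI mice Cd3g, Cd8a and Nkg7 were lower in every MemB library, and the others overlapped. Mast cell sums overlapped in both genotypes, at 44.7, 1.44 and 233.9 CPM in control MemB. There edgeR called Cma1 above control B2 (log2 fold change 6.23, SE 1.39, adjusted p = 0.0477), although replicate 2 lay within the B2 range. The part of such cells was not tested. No kinesin had all 6 MemB libraries above all 6 B2 libraries or the reverse, patterns met by 0.799% and 0.462% of all genes, and Kif22 came close with a lowest MemB library of 4.25 CPM and a highest B2 library of 4.54 CPM. These comparisons share libraries with those of KI against control and are not independent of them.

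**Figure D4:**
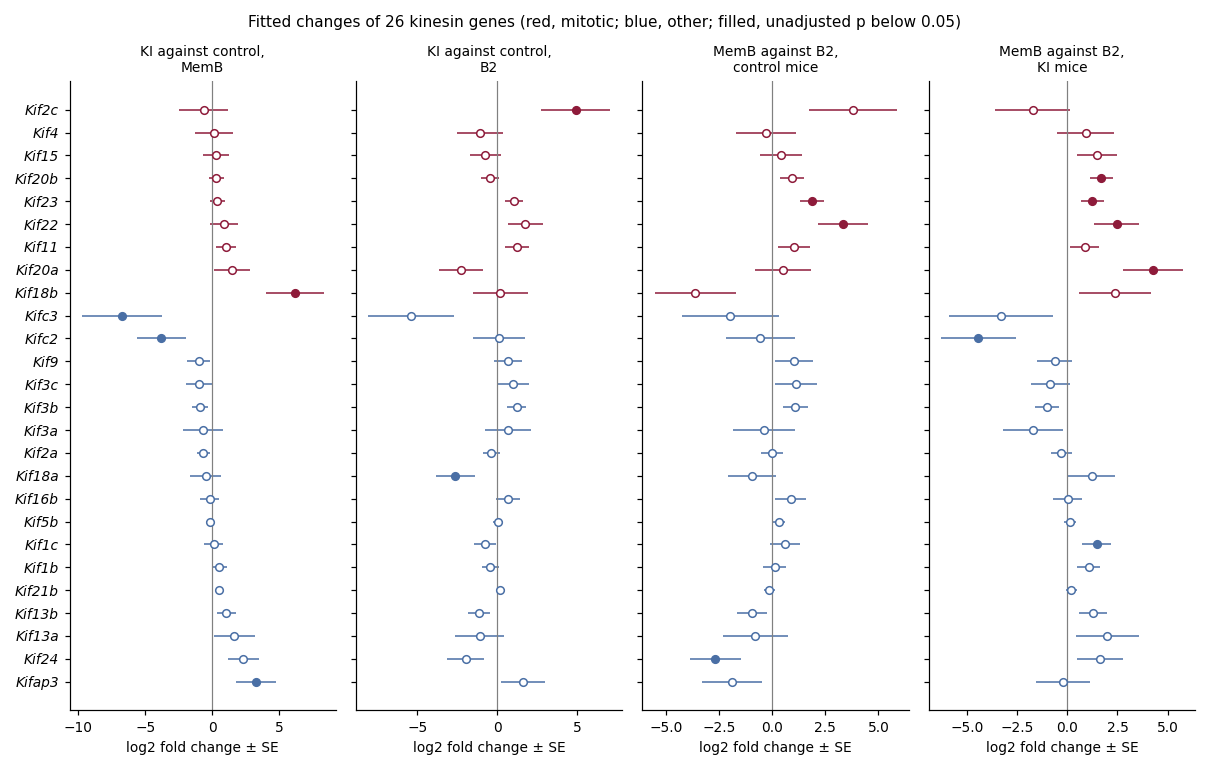
Fitted log2 fold change ± SE of the 26 kinesin genes tested, in each of 4 comparisons, with mitotic members in red, the others in blue and filled points for an unadjusted edgeR p below 0.05. Red points lie mostly to the right of 0 in the MemB against B2 panels, with medians of 0.92 and 1.47, and no point passed the adjusted threshold of edgeR.

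The transport motors were led by 2 evenly expressed genes. Kif5b, the conventional kinesin heavy chain that moves vesicles and mitochondria, was at 128.2, 181.0 and 85.7 CPM in control B2, 137.6, 139.4 and 127.5 CPM in KI B2. For MemB the values were 167.5, 168.5 and 158.9 CPM in control and 166.6, 172.3 and 104.6 CPM in KI mice. KI and control libraries overlapped in both populations, while control MemB lay above KI B2. The log2 fold change of KI against control was -0.16 (SE 0.28, edgeR adjusted p = 0.909) in MemB and 0.04 (SE 0.28, edgeR adjusted p = 0.999) in B2. Kif21b (chromosome 1, 136059098 to 136105763), a motor that restrains microtubule growth in neurons and lymphocytes, was at 187.4, 182.7 and 148.5 CPM in control B2, 190.7, 180.0 and 221.5 CPM in KI B2. MemB had 108.1, 187.4 and 176.1 CPM in control and 158.9, 249.9 and 274.0 CPM in KI mice. Its 2 highest libraries were both KI MemB, with a log2 fold change of 0.53 (SE 0.26, edgeR adjusted p = 0.452) against control MemB.

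Kinesin-2 is a heterotrimer in which Kif3a pairs with Kif3b or Kif3c and Kifap3 joins them. Kif3b (chromosome 2, 153133325 to 153175310, plus strand) was at 21.1, 20.8 and 9.07 CPM in control B2, 56.4, 38.2 and 21.9 CPM in KI B2. It was at 24.6, 61.1 and 23.4 CPM in control MemB and at 19.6, 16.3 and 21.5 CPM in KI MemB. KI libraries were thus all above control libraries in B2 and all below them in MemB. The log2 fold change was 1.19 (SE 0.59, edgeR adjusted p = 0.849) in B2 and -0.93 (SE 0.59, edgeR adjusted p = 0.592) in MemB, and the difference between these, tested as an interaction, was -2.12 (SE 0.83, edgeR adjusted p = 0.463). Kif3c had means of 5.92 ± 1.22, 11.8 ± 5.60, 12.9 ± 4.56 and 6.55 ± 6.80 CPM in B2 of control and KI mice and in MemB of control and KI mice (SD, n = 3 each), although every Kif3c value was fractional. Kif3a, the common partner, lay between 0.63 and 10.1 CPM without separation of any groups. Kifap3 was at 3.39, 2.62 and 1.47 CPM in control B2, 17.8, 4.72 and 0.23 CPM in KI B2. MemB libraries contained 1.08, 0.24 and 0.69 CPM in control and 10.98, 4.17 and 4.33 CPM in KI MemB. Here KI MemB exceeded control MemB in every library, with a log2 fold change of 3.27 (SE 1.49, edgeR adjusted p = 0.408), in the direction opposite to that of Kif3b.

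Among the vesicle and endosome motors, Kif13b, which binds the scaffold Dlg1, was at 47.2, 18.6 and 10.8 CPM in control B2, 12.2, 15.4 and 6.77 CPM in KI B2. Control MemB had 15.2, 10.3 and 14.4 CPM and KI MemB 21.8, 21.7 and 39.0 CPM. The KI MemB libraries were the higher ones within MemB (log2 fold change 1.05, SE 0.69, edgeR adjusted p = 0.609), and the difference of the KI effect between MemB and B2 was 2.21 (SE 0.98, edgeR adjusted p = 0.528). Kif1b, a carrier of mitochondria and vesicle precursors, had means of 31.2 ± 13.2, 23.1 ± 5.30, 33.8 ± 22.1 and 48.2 ± 21.8 CPM in B2 of control and KI mice and in MemB of control and KI mice (SD, n = 3 each). Its KI MemB libraries were above its KI B2 libraries, with a log2 fold change of 1.06 (SE 0.56, edgeR adjusted p = 0.517). Kif1c spread from 8.11 to 74.8 CPM within KI MemB alone, and its MemB against B2 log2 fold change in KI mice was 1.46 (SE 0.71, edgeR adjusted p = 0.47). Kif16b, a motor of early endosomes, ranged from 5.05 to 39.6 CPM and Kif13a, a motor of recycling endosomes, from 0.06 to 9.21 CPM.

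Some members counted here with the others also act in division or at centrioles. Kif18a, which damps chromosome movement on kinetochore microtubules, was at 6.49, 33.2 and 10.1 CPM in control B2, 1.15, 2.96 and 3.85 CPM in KI B2, 2.61, 22.8 and 0.45 CPM in control MemB, and 12.4, 3.12 and 2.96 CPM in KI MemB. Replicate 2 stood highest in both control groups. Its KI B2 libraries were all below control B2, at a log2 fold change of -2.64 (SE 1.21, edgeR adjusted p = 0.849). Kif24 (chromosome 4, 41389632 to 41464901, minus strand, overlapping Ubap1), a centriolar motor that holds back cilium formation, was at 10.96, 20.7 and 3.65 CPM in control B2, 2.85, 3.38 and 2.68 CPM in KI B2, 3.13, 0.82 and 1.56 CPM in control MemB, and 13.2, 2.42 and 11.9 CPM in KI MemB. Control mice had more Kif24 in B2 than MemB in every library (log2 fold change of MemB against B2 -2.68, SE 1.196, edgeR adjusted p = 0.437). Between MemB and B2 the log2 fold change of KI against control differed by 4.31 (SE 1.66, edgeR adjusted p = 0.456), which DESeq2 called (4.31, SE 1.24, DESeq2 adjusted p = 0.0399). Kif2a, a depolymerase of both spindles and neurites, had means of 59.1 ± 28.7, 45.5 ± 21.4, 58.6 ± 19.2 and 37.0 ± 22.6 CPM in B2 of control and KI mice and in MemB of control and KI mice (SD, n = 3 each), and every one of its values was fractional.

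For the difference of the KI effect between MemB and B2, edgeR called 0 of 26 kinesins and 0.066% of all genes, while DESeq2 called Kif24 among 1.34% of all genes. At an unadjusted edgeR p below 0.05 the difference was positive for Kif24, Kif18b and Kif13b, against 3.97% of all genes, and negative for Kif3b, against 4.52%. It was positive at any p for 5 of 9 mitotic and 8 of 17 other members, against 49.8% of all genes. The difference was 5.96 (SE 2.63, edgeR adjusted p = 0.526) for Kif18b. DESeq2 on every gene with a count, tried after the data had been seen, called 2 kinesins in KI against control MemB (2.98% of all genes), 0 in B2 (0.738%), 3 between the populations of control mice (2.57%), 3 in KI mice (2.42%) and 1 for the difference of the KI effect (1.65%).

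The minus-end motors Kifc2 and Kifc3 were near the floor in KI MemB. Kifc2 had 6, 5 and 333.4 counts in control B2, 218, 124 and 54 counts in KI B2, 71, 131 and 45.4 counts in control MemB, and 4, 8 and 4 counts in KI MemB. Its KI MemB libraries were below all libraries of KI B2 and control MemB, with log2 fold changes of -4.44 (SE 1.86, edgeR adjusted p = 0.401) and -3.79 (SE 1.81, edgeR adjusted p = 0.441). Kifc3 was at 0 in all 3 KI MemB libraries, but control MemB had 42, 0 and 0 counts, control B2 10.8, 0 and 142 counts and KI B2 0, 4 and 0 counts, so 1 library held most counts of each control group. Its fitted fold change in MemB depends on the prior count and is not read here. Kif9, a motor of motile cilia, was at 18.3, 11.5 and 19.9 CPM in control MemB and 5.46, 10.6 and 8.60 CPM in KI MemB (log2 fold change -1.01, SE 0.88, edgeR adjusted p = 0.736).

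**Figure D5:**
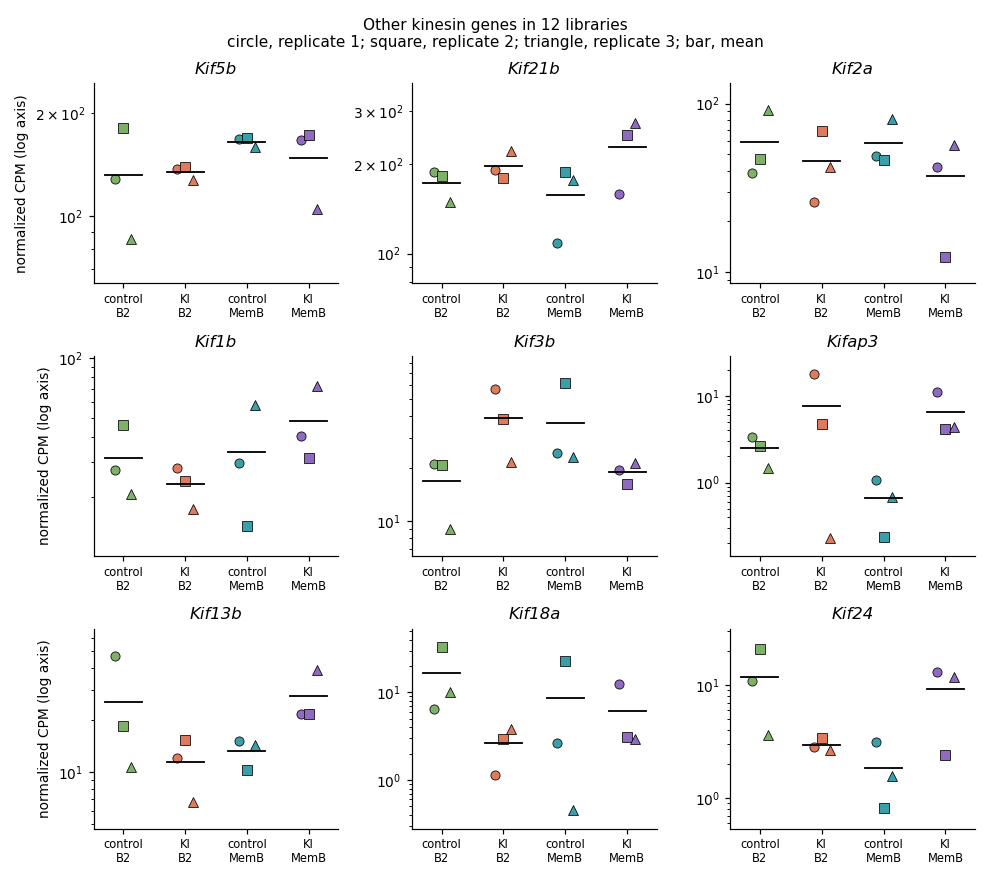
Normalized CPM (log axis) of 9 of the other kinesin members in each of the 12 libraries by group, with a bar at the group mean. Kif5b and Kif21b vary little, and Kif3b shows KI libraries above control in B2 and below control in MemB.

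The remaining 15 members were not tested. Of these, 10 had no count in any library (Kif2b, Kif6, Kif7, Kif12, Kif17, Kif19b, Kif21a, Kif26a, Kif26b and Kif28), a set that includes motors of sperm, cilia and neurons, and at the floor of 3 counts a level of up to 0.073 to 0.102 CPM per library could not be seen. The other 5 were detected in a few libraries. Kif1a had 27 counts in replicate 3 of control B2, Kif5a 52 counts in replicate 3 of KI MemB, Kif19a 14 counts in replicate 3 of KI B2, and Kif27 and Kif5c at most 9 counts in any library.

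Transcripts of proteins that work with mitotic kinesins were measured from a list of 14 spindle and midzone genes, all of which were tested. In MemB, 13 of 14 had a higher mean in KI, against 48.4% of all genes, with a median log2 fold change of 1.298. At an unadjusted edgeR p below 0.05, 4 were higher, against 4.83% of all genes, and 0 were lower, against 6.24%. edgeR called 0 of them, against 0.284% of all genes, and DESeq2 called 2, against 3.17%. Ect2, the exchange factor that centralspindlin recruits to start cleavage, was at 0.46, 2.55 and 5.07 CPM in control and 44.6, 11.98 and 35.3 CPM in KI MemB, a separation with a log2 fold change of 3.51 (SE 1.16, edgeR adjusted p = 0.295). Prc1, the midzone crosslinker to which Kif4 binds, was at 9.52, 16.6 and 8.03 CPM in control and 32.1, 39.5 and 28.8 CPM in KI MemB (log2 fold change 1.56, SE 0.72, edgeR adjusted p = 0.424). Prc1 went the other way in B2, at 9.51, 13.6 and 48.2 CPM in control and 9.84, 3.96 and 6.31 CPM in KI, although these libraries overlapped (log2 fold change -1.83, SE 0.73, edgeR adjusted p = 0.838). The difference of its KI effect between MemB and B2 was 3.38 (SE 1.03, edgeR adjusted p = 0.342), which DESeq2 called (3.40, DESeq2 adjusted p = 0.0179). DESeq2 called 1 of 14 partners for this difference, against 1.34% of all genes, and edgeR 0, against 0.066%. In MemB against B2 of KI mice DESeq2 called 4, Prc1 among them, against 2.59%, and edgeR 0, against 0.363%. Ckap5, a microtubule polymerase, was at 42.5, 26.7 and 18.8 CPM in control and 70.9, 81.2 and 56.1 CPM in KI MemB (log2 fold change 1.24, SE 0.47, edgeR adjusted p = 0.346).

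Racgap1, the partner of Kif23 in centralspindlin, was at 31.7 ± 15.5 CPM in control and 32.3 ± 14.1 CPM in KI MemB (SD, n = 3 each). Cenpe, the kinetochore kinesin that carries a different name, was at 0.68, 6.78 and 21.9 CPM in control and 20.5, 11.1 and 31.4 CPM in KI MemB, and the groups overlapped (log2 fold change 1.10, SE 1.12, edgeR adjusted p = 0.797). Aurkb, cargo of Kif20a, and Tpx2, which targets Kif15 and Kif11 to the spindle, overlapped likewise, with log2 fold changes of 2.04 (SE 1.32, edgeR adjusted p = 0.602) and 0.59 (SE 1.62, edgeR adjusted p = 0.947). In B2 the median over the 14 genes was -0.11, with 7 of 14 higher. A CHR was present in the promoters of 8 of 11 of these genes with a RefSeq promoter, or 72.7%.

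Dynein and dynactin, which carry cargo toward microtubule minus ends, gave 18 tested genes of 20 listed, with a median log2 fold change of 0.01 in MemB and 0.15 in B2 for KI against control, and edgeR and DESeq2 called 0. Of all genes, edgeR called 0.284% in MemB and 0.0066% in B2, and DESeq2 3.17% and 0.284%. In MemB 9 of 18 means were higher, against 48.4% of all genes. Dctn3 alone had an unadjusted edgeR p below 0.05, against 4.83% higher and 6.24% lower of all genes, at a log2 fold change of 1.85 (SE 0.88, edgeR adjusted p = 0.441), with Dynll1 next at 0.67 (SE 0.33, edgeR adjusted p = 0.452). Kinesin light chains and cargo adaptors gave 13 tested genes of 17, with medians of 0.08 in MemB and 0.33 in B2, and 0 were called by edgeR or DESeq2, against the same shares of all genes. An unadjusted edgeR p below 0.05 was found for 0 in either, against 4.83% higher and 6.24% lower of all genes in MemB and 2.86% and 2.88% in B2, so few calls would come from 13 genes at these shares. The smallest p values in MemB were those of Klc4 (log2 fold change 1.93, SE 1.43, edgeR adjusted p = 0.667) and Arl8b (0.53, SE 0.44, edgeR adjusted p = 0.71).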

How the data were processed

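Per the labels and the methods of the study, total RNA of sorted cells was amplified with the Ovation RNA-seq System V2 and sequenced as paired ends, and the submitters' processing notes name FastQC 0.12.1, cutadapt 4.5, STAR 2.7.11a and RSEM 1.3.3 with the mm39 build. The authors deposited RSEM expected counts per gene, which are estimates, and 32.17% of the nonzero values were not whole. Here they were rounded, filtered with filterByExpr (minimum count 10), which left 15148 genes, TMM-normalized and tested with the quasi-likelihood F test of edgeR 4.0.16 (robust fit) in R 4.3.3. One model held 4 group means over all 12 libraries, p-values were adjusted by Benjamini-Hochberg over all genes tested, and calls needed a log2 fold change beyond 1 with the adjusted p under 0.05. SE is that of the log2 fold change. DESeq2 1.42.0, other normalizations, filters and blocks, and leaving out libraries were alternatives.

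Library totals were 29895031 to 39732039 counts, so a floor of 3 counts stands for 0.073 to 0.102 CPM. The floor and the exact interval (95%, binomial on summed counts) cover counting error only. Replicates are labelled as biological, and the sources used here do not say whether B2 and MemB with the same number came from the same mouse. Reads shared between similar or overlapping genes were divided by RSEM, so such genes are uncertain. Gene positions and exonic lengths are from GENCODE M39 (GRCm39) and promoters from RefSeq (GRCm38.p6). Members, lists and rules were chosen with earlier results of these data known. Named were all mitotic members, Kif18a, Kifap3, the 3 other members with the smallest p in each comparison and the 5 with the highest level, fixed partners, and the 2 genes of each further list with the smallest p in MemB. Kif9, Kif16b, Kif13a, Kif3a, Kif3c and the members not tested are outside this rule. The fitting scripts were tested on simulated data.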

Additional observations from a re-analysis of the deposited data

Results flagged for a closer look

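Kif3b stood out because its KI libraries were above all control libraries in B2 (21.9 to 56.4 against 9.07 to 21.1 CPM) and below them in MemB (16.3 to 21.5 against 23.4 to 61.1 CPM). The difference of the 2 log2 fold changes was -2.12 (SE 0.83), and the interaction test of edgeR gave an adjusted p of 0.463. Among the members with too few counts to be tested, Kif5a had 52 counts in replicate 3 of KI MemB and at most 1 count in any control library. Kif19a had 14 counts in replicate 3 of KI B2, and Kif5c had 9 counts in replicate 2 of KI MemB, with both at 0 in the control libraries. Each of these signals came mainly from 1 library, so no comparison was made.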

How the results depend on the processing

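The number of kinesins called by edgeR stayed at 0 in each of the 5 comparisons under every edgeR setting tried and with each of the 12 libraries left out in turn. DESeq2 called 1 in KI against control MemB (Kif18b), 2 in MemB against B2 of control mice (Kif22 and Kif23), 1 in MemB against B2 of KI mice (Kif20a) and 1 for the difference of the KI effect (Kif24). DESeq2 on every gene with a count, an alternative chosen after seeing the data, called 2, 3, 3 and 1, against 2.98%, 2.57%, 2.42% and 1.65% of all 25757 genes, adding Kifap3 in MemB (3.29, adjusted p = 0.046), Kif24 in control mice (-2.68, adjusted p = 0.0198), and Kifc2 (-4.47, adjusted p = 0.0212) and Kif22 (2.47, adjusted p = 0.0281) in KI mice. The cause of these differences between tools was not tested.

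With 1 library left out, the median log2 fold change of the mitotic members in MemB ranged from 0.28 (without KI MemB replicate 1) to 0.96 (without control MemB replicate 3), and it was 1.12 with the 4 libraries numbered 3 left out and 0.38 as reported. In B2 the median ranged from -0.57 (without KI B2 replicate 3) to 1.68 (without control B2 replicate 3) over the mitotic members and from -0.34 to 0.10 over the others. The median of the others in MemB ranged from -0.39 to 0 with 1 library left out and was -0.62 without the 4 libraries numbered 3. Kif11 in MemB was 2.19 without those 4. Some log2 fold changes that were not called changed sign. Leaving out 1 library gave ranges in MemB of -0.22 to 2.51 for Kif15, -1.45 to 1.09 for Kif2c, -0.44 to 3.34 for Kif4 and -0.28 to 0.041 for Kif5b. Kifc3 ran from -7.32 to 0 without a change of sign, and its fitted value rests on the prior count because its KI MemB libraries are all at 0. In B2 the ranges were -2.01 to 0.027 for Kif15, -2.42 to 2.72 for Kif18b, -0.88 to 0.22 for Kif20b and -2.54 to 0.78 for Kif4, and Kif20a in MemB against B2 of control mice ranged from -2.40 to 1.40. Without the 4 libraries numbered 3, Kif5b in MemB was 0.027 and in B2 Kif20b was 0.13 and Kif4 1.00. Over 48 gene results and 540 values under another setting, leave-one-out apart, 521 kept direction and side of the threshold.

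With the replicate number as a block, 0 kinesins were called in each comparison, the mitotic median in MemB was 1.35 in place of 0.38, and Kif20a in control MemB against B2 was -0.60 (-1.28 with a block for each genotype and number). Deviations of libraries sharing a number correlated at only -0.03 to 0.03, which gives no support for pairing by number, and the reported values use no block. Members at or under 3 counts in a library cannot be told from absent ones.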
